A study of Mus musculus with 281 samples.

Results

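The comparison set 31 single cells labelled tpMo against 21 single cells labelled proneu, all sorted from bone marrow of the inbred mouse strain C57BL/6. Cells were taken by their cell type label within the last stretch of the sample titles, which held both labels, and they made up 52 of the 281 cells of the series. The study addressed the heterogeneity of granulocyte-monocyte progenitors, and SMART-seq2, which reads transcripts over their full length, was used on every cell. The tpMo gate was lineage-negative, CD115-positive, c-Kit-negative, CXCR4-positive and Ly6C-positive; tpMo is a name used in the field for transitional pre-monocytes. The gate given for the proneu cells asked for c-Kit, CD34, Ly6C and a high level of CD16/32, with no lineage markers and no Sca-1, the same as for the cells labelled Ly6C+GMP. The labels do not say how proneu cells were told from others of that gate. Where their own RNA was used for it, genes that set the label would differ from tpMo cells partly by construction. No mouse, age, sex or treatment is named, each sample was 1 cell, and the labels do not tie cells to animals.

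Granulocyte-monocyte progenitors feed a monocyte branch and a neutrophil branch. Early neutrophil progenitors make the primary (azurophil) granules, which store myeloperoxidase and serine proteases, and later stages make secondary granules rich in lactoferrin and antimicrobial peptides. The monocyte branch depends on the transcription factor IRF8 and the receptor CD115, encoded by Csf1r, and its cells acquire lysosomal, phagocytic and chemokine receptor genes.

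Values are TPM, the relative abundance of a gene's transcripts within a cell corrected for their length, as the authors deposited them. TPM is relative, so fewer transcripts of one gene and more of the others cannot be told apart. A gene was measured if it averaged at least 1 TPM under either label, and a cell detected it from 1 TPM upward. Differences are tpMo minus proneu in the average log2(TPM + 1) of the cells, a scale that shrinks differences of low genes, and a gene was counted as higher or lower from 1 log2 unit. Because each label counts as 1 sample, no test was made and nothing here has a replicate check. Each SD describes how cells of a label vary, and intervals of shares cover counting error only.

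The number of detected genes per cell had a lowest, median and highest value of 2408, 3082 and 4363 in tpMo cells, against 2634, 4254 and 4894 in proneu cells. Mitochondrially encoded genes took a median of 3.58% of TPM in tpMo cells and 6.02% in proneu cells. The read depth behind these numbers is unknown. Since tpMo cells had fewer detected genes, some lists are also given for the cells with 3000 to 4300 detected genes, 19 tpMo and 10 proneu cells. This range narrows the difference in detected genes but does not remove it. It also picks a part of the tpMo cells: among all 31, the summed primary granule level rose with detected genes (Spearman's rho 0.70). Counts from it are thus not corrected for detection. For some, the counts by the log2 ratio of mean TPM or with 10 TPM added in place of 1 are given too.

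The 4 markers given with the comparison were checked first. Irf8, a transcription factor gene of monocyte and dendritic cell commitment, had a lowest, median and highest value of 0, 279 and 955 TPM in tpMo cells, against 0, 0 and 7.64 TPM in proneu cells. It was detected in 28 of 31 tpMo cells (90.3%, Clopper-Pearson 95% interval 74.2 to 98%) and in 6 of 21 proneu cells (28.6%, 11.3 to 52.2%), and 24 tpMo cells lay above every proneu cell. Csf1r, which encodes CD115, had 0, 127 and 587 TPM in tpMo cells and 0, 0 and 159 TPM in proneu cells. It was detected in 22 of 31 tpMo cells and 1 of 21 proneu cells, and since CD115 protein was part of the tpMo gate its level is partly set by the sort.

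Elane, which encodes neutrophil elastase (GRCm38 chromosome 10, 79886247 to 79888215, plus strand), had 16.2, 532 and 25159 TPM in tpMo cells and 29840, 44299 and 57868 TPM in proneu cells. Every proneu cell lay above every tpMo cell. Fcnb, a ficolin gene of neutrophil progenitors, had 0, 8.48 and 3138 TPM in tpMo cells and 2.23, 865 and 4131 TPM in proneu cells. These groups overlapped for Fcnb. The markers thus followed the labels for all 4 genes at the level of the median cell.

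Some cells stood apart from the others of their label. tpMo cell 24 (cell numbers only name a cell) had 25159 TPM of Elane and 25347 TPM of Mpo, the myeloperoxidase gene, while its Csf1r, Ccr2 and Ctss stood at 0.51, 0.67 and 0 TPM. Its Lyz2 level of 6126 TPM was the lowest of the tpMo cells and still above all proneu cells. tpMo cells 18 and 3 followed with 18251 and 9014 TPM of Mpo, and both held Csf1r (415 and 238 TPM) and Irf8 (764 and 548 TPM). With 4104, 4144 and 4363 detected genes, these 3 cells were close to the median of proneu cells. Among proneu cells, cell 8 had the fewest detected genes, 2634, the lowest Mpo, 5647 TPM, and the highest Lyz2, 2099 TPM. Results are given with all cells, and without these cells where the values moved.

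Of 11446 measured genes, 834 (7.29%) were at least 1 log2 unit higher in tpMo cells and 2833 (24.8%) were lower, and the median of all measured genes lay at -0.32. Thus 22.7% of the genes past 1 log2 unit were higher in tpMo cells. This split moved with the number of detected genes and with the scale. In the cells with 3000 to 4300 detected genes 37.9% were higher. With the log2 ratio of mean TPM, which gives little weight to cells at 0, 47.8% were higher. In counts, 1484 of 10664 measured genes were higher and 2432 lower in the cells with 3000 to 4300 detected genes. By the ratio of means 2922 of 11446 were higher and 3196 lower, and with 10 TPM added 441 and 1164. Counts of lists are to be read beside the counts of all measured genes under the same setting. Without the 3 tpMo cells highest in Mpo, 811 genes were higher and 3008 lower, and without proneu cell 8 the counts were 800.0 and 2991.

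**Figure D1:**
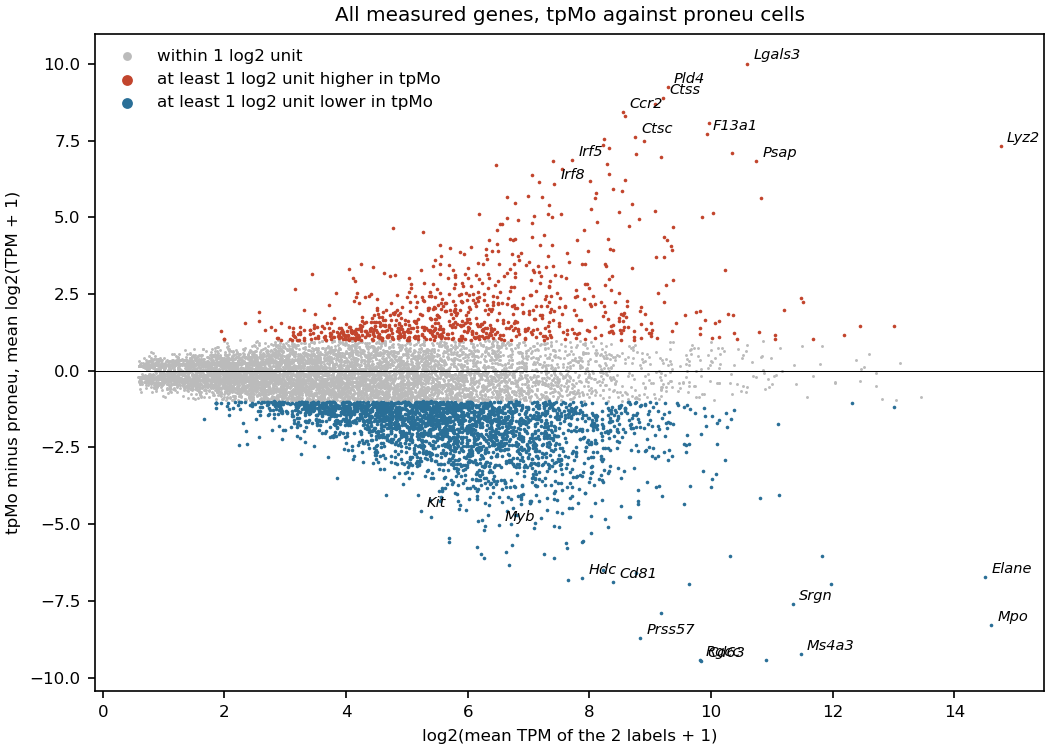
Difference of mean log2(TPM + 1), tpMo minus proneu, against the log2 of the mean TPM of both labels plus 1, for 11446 measured genes. Red points are the 834 genes at least 1 log2 unit higher in tpMo cells and blue points the 2833 lower; Lgals3 and Lyz2 stand at the top right and Elane and Mpo at the bottom right.

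In 5 genes (0.0437% of those measured) every tpMo cell lay above every proneu cell, and in 6 (0.0524%) every tpMo cell lay below. The first were Lgals3, Pld4, F13a1, Lyz2 and Fcer1g, and the second were Cd63, Nkg7, Ms4a3, Ctsg, Elane and Prtn3. Without tpMo cells 24, 18 and 3 the counts were 13 and 11. Lgals3, which encodes the lectin galectin-3 (chromosome 14, 47367751 to 47386160, plus strand), had the largest difference of the genes named by the rule. Its lowest, median and highest cells had 148, 3017 and 8676 TPM among tpMo cells, against 0, 0 and 26.4 TPM among proneu cells, a difference of 10.01.

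Pld4, a lysosomal nuclease gene, had 149, 1082 and 3692 TPM in tpMo cells and 0, 0 and 2.58 TPM in proneu cells, a difference of 9.23. Lyz2, the lysozyme gene of monocytes, macrophages and neutrophils (chromosome 10, 117277331 to 117282321, minus strand), had 6126, 53623 and 108528 TPM in tpMo cells and 32.0, 366 and 2099 TPM in proneu cells. The tpMo and proneu ranges did not overlap for either gene. The level of Lyz2 in the median tpMo cell was of the order that Elane and Mpo reached in the median proneu cell.

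**Figure D2:**
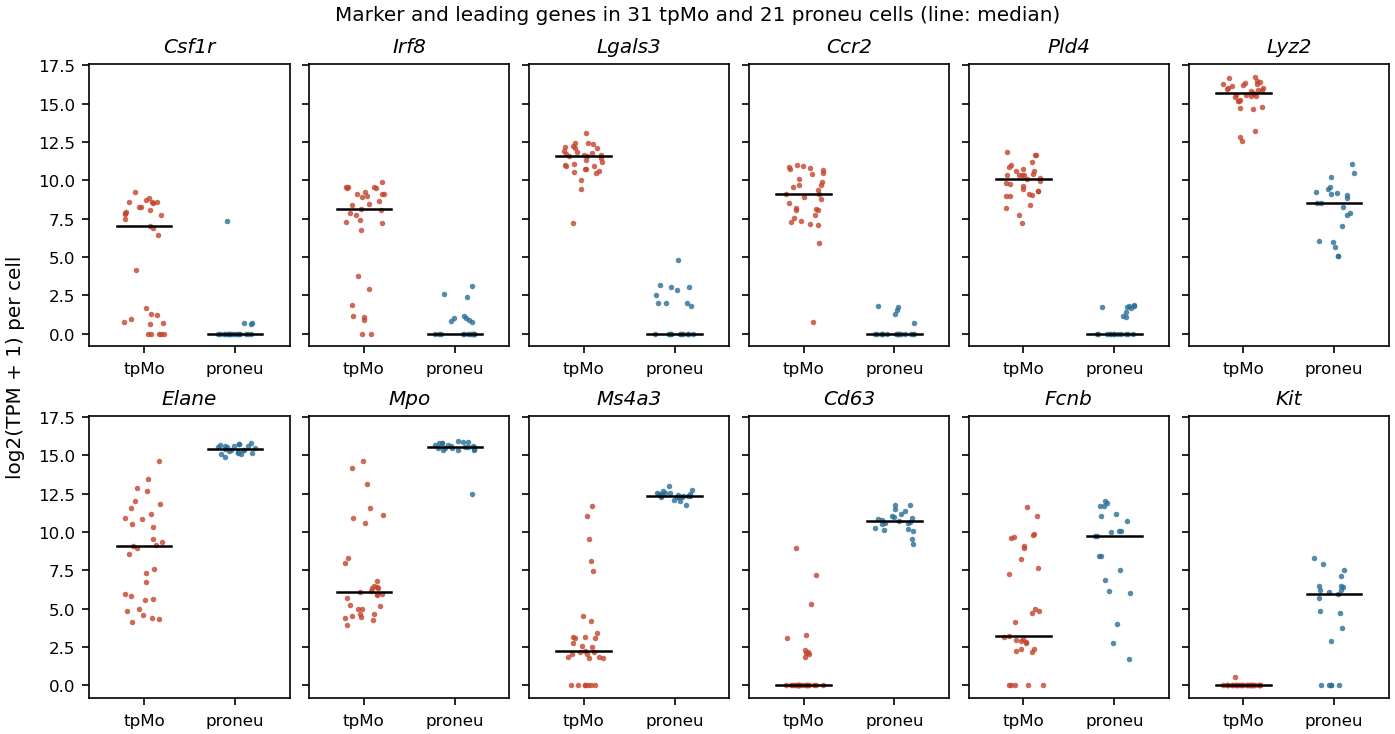
log2(TPM + 1) of 12 marker and leading genes in 31 tpMo cells (red, left) and 21 proneu cells (blue, right); each point is a cell and the line is the median. Lgals3, Pld4 and Lyz2 separate upward and Elane, Ms4a3 and Cd63 downward, while Mpo overlaps in 3 tpMo cells and Kit stays under 1 TPM in all tpMo cells.

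Primary granule genes were lower in tpMo cells almost throughout the list: 12 of 13 measured members (of 14) were lower, 1 was higher, and the median difference was -6.93 against -0.32 over all measured genes. Their summed level had a lowest, median and highest value of 728, 2953 and 70601 TPM in tpMo cells and 88038, 127260.0 and 164477 TPM in proneu cells. No tpMo cell reached the lowest proneu cell. Mpo (chromosome 11, 87793581 to 87804413, plus strand) had 14.4, 66.3 and 25347 TPM in tpMo cells and 5647, 48402.5 and 61821 TPM in proneu cells, a difference of -8.30. All but 3 tpMo cells lay below the lowest proneu cell, proneu cell 8.

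The serine protease genes followed the same order. Prtn3, the proteinase 3 gene, had 3.47, 275 and 4049 TPM in tpMo cells and 4113, 6295 and 10036 TPM in proneu cells, a difference of -6.03. Ctsg, the cathepsin G gene, had 0, 17 and 3259 TPM in tpMo cells and 3685, 7651 and 12080.4 TPM in proneu cells, a difference of -6.93. Neither gene overlapped between the labels, and in both the highest tpMo cell came close to the lowest proneu cell. Prss57, a further serine protease of the primary granules, was detected in 5 of 31 tpMo cells and 21 of 21 proneu cells.

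Genes of granule packing and membranes were among the largest differences. Srgn encodes serglycin, the proteoglycan that holds proteases in granules, and had 0, 8.58 and 3098 TPM in tpMo cells and 2311, 4561 and 11247 TPM in proneu cells. Cd63, a tetraspanin of lysosome and primary granule membranes, had 0, 0 and 495 TPM in tpMo cells and 592, 1651 and 3484 TPM in proneu cells. For Cd63 the groups did not overlap, and for Srgn 1 tpMo cell reached the range of proneu cells. Ms4a3, a tetraspan membrane protein gene known from granulocyte-monocyte progenitors, had 0, 3.76 and 3285 TPM in tpMo cells and 3438, 5314 and 8329 TPM in proneu cells. The highest tpMo cell for Ms4a3 was cell 24, and without cells 24, 18 and 3 the highest tpMo cell had 274 TPM.

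The 1 primary granule list member that was higher in tpMo cells was Ctsc, which encodes the protease that activates the granule serine proteases by trimming them. Ctsc had 0, 760 and 1980.3 TPM in tpMo cells and 0, 0.87 and 240 TPM in proneu cells, a difference of 7.61. Of the 31 tpMo cells, 29 lay above every proneu cell. Ctsc is also in the lysosome list, and in proneu cells it was low while Elane, Prtn3 and Ctsg, whose products it activates, were high. The inhibitor of CTSC, cystatin F, is encoded by Cst7, which had 0, 0 and 619 TPM in tpMo cells and 0, 996 and 2759 TPM in proneu cells.

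Mean levels show how much the 3 tpMo cells weighed. Elane averaged 2405 ± 4969 TPM in tpMo cells and 44343 ± 8053 TPM in proneu cells (SD over 31 and 21 cells), and the tpMo mean without cells 24, 18 and 3 was 1089 ± 1597 TPM. Mpo averaged 2033 ± 5625 TPM in tpMo cells and 47945 ± 11580.0 TPM in proneu cells, and 371 ± 788 TPM in tpMo cells without those 3. The mean of Ms4a3 in tpMo cells was 218 ± 698 TPM with them and 20.5 ± 59.5 TPM without them, against 5470 ± 1016 TPM in proneu cells.

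**Figure D3:**
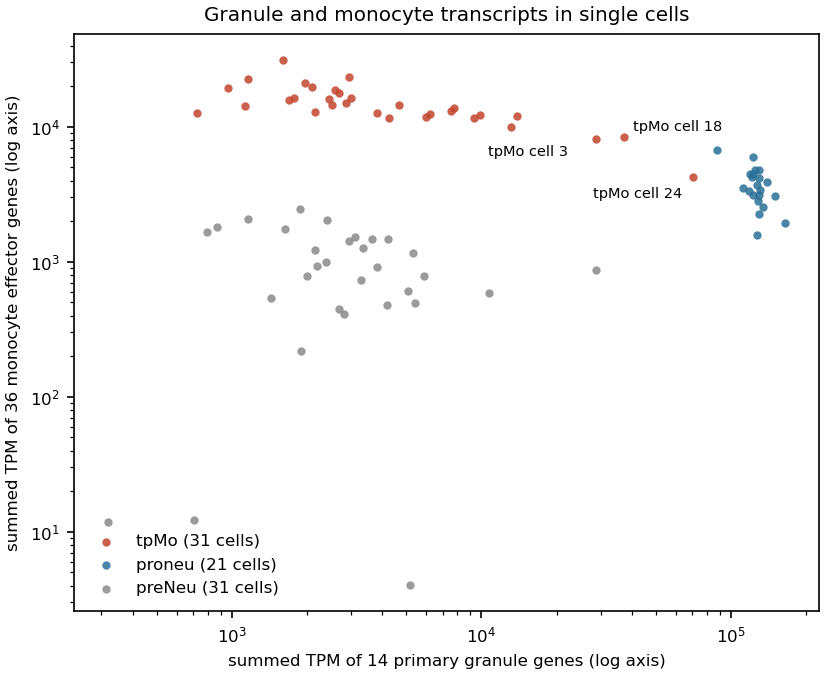
Summed TPM of 36 monocyte effector genes against summed TPM of 14 primary granule genes, both on log axes, one point per cell for tpMo (red), proneu (blue) and, beside them, preNeu cells (grey) of the same stretch of titles. tpMo cells spread from 728 to 70601 TPM of granule transcripts, and the 3 cells nearest to the proneu cells are numbered.

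Within the tpMo label the granule transcripts formed a spread rather than a point. Elane was at or above 100 TPM in 21 of 31 tpMo cells, at or above 1000 TPM in 12 and at or above 5000 TPM in 4, while it exceeded 5000 TPM in all 21 proneu cells. Across the 31 tpMo cells, Spearman's rho of the summed primary granule level was -0.75 with the summed monocyte effector level and 0.70 with the number of detected genes. Without the 3 highest cells these values were -0.66 and 0.60 (28 cells). Both sums come from the same cell's total and library, and the part of detection in this spread was not tested.

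To show the letters behind the granule genes, their promoters were searched for AGGAAGT, a form of the binding motif of the ETS family, to which the myeloid factor PU.1 belongs. The motif was chosen with the results known, both strands were searched over 250 bases before the gene start that RefSeq gives (GRCm38.p6), and it does not overlap the other motif searched below. It was present in 6 of 12 primary granule promoters with an entry (50%; Elane, Mpo, Prtn3, Ctsg, Ctsc and Cst7), against 7.80% of 27025 promoters. It was present in 4 of 16 promoters of the largest differences upward and in 6 of 17 of those downward. These sets overlap the granule list: Ctsc is among the 4, and Elane, Mpo, Prtn3, Ctsg and Cst7 are among the 6. Matches thus lay in genes of both directions. Stretches of the 4 most abundant genes of the list that hold it are given 5′ to 3′ on the gene's strand, with the motif in capitals: Elane (chr10:79886188-79886274, plus strand), Mpo (chr11:87793534-87793607, plus strand), Prtn3 (chr10:79879533-79879619, plus strand) and Ctsg (chr14:56102734-56102820, minus strand). GENCODE places some of these starts elsewhere, so the stretch of Prtn3 lies inside the gene as GENCODE draws it, and the last bases of those of Elane and Mpo do so too. A match is a description of letters and shows no binding.
Elane: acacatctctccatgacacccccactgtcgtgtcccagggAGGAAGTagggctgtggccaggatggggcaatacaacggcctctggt
Mpo: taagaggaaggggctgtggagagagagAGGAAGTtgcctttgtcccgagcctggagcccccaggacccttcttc
Prtn3: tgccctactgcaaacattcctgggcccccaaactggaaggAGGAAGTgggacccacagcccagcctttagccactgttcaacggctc
Ctsg: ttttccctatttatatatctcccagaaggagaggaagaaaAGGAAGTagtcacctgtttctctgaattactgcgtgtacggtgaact

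Secondary and late granule genes differed in both directions: 5 of 21 measured members (of 25) were higher in tpMo cells, 7 were lower and 9 lay within 1 log2 unit. Of all measured genes 7.29% were higher and 24.8% lower. At 3000 to 4300 detected genes 8 members were higher and 7 lower. Chil3, a chitinase-like protein gene of myeloid cells, had 3.48, 1731 and 13814 TPM in tpMo cells and 0, 10.8 and 1568 TPM in proneu cells, a difference of 5.63. S100a8, which forms the calprotectin pair with S100a9, had 0, 126 and 7392 TPM in tpMo cells and 124, 2324 and 15124 TPM in proneu cells, a difference of -4.06. Trem3, a receptor gene of the TREM family, had 0, 2.77 and 808 TPM in tpMo cells and 413, 1322 and 3416 TPM in proneu cells. Pglyrp1, a granule protein gene that binds bacterial peptidoglycan, differed by -5.10.

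The hallmark secondary granule genes were low in the median cell of both labels beside later neutrophil cells. Ngp, which encodes a neutrophil granule protein, had a median of 89.6 TPM in tpMo cells and 93.8 TPM in proneu cells, or 0.0620% and 0.0648% of its median in preNeu cells, the later neutrophil stage of the same stretch of titles. Single cells ranged from 10.7 to 214 TPM of Ngp among tpMo cells and from 4.24 to 945 TPM among proneu cells. Camp, the cathelicidin gene, had a median of 26.8 TPM in tpMo cells and 28.1 TPM in proneu cells, and Ltf, the lactoferrin gene, 11 TPM in tpMo cells and 4.49 TPM in proneu cells. What sets these levels was not tested. Detection of an abundant transcript, such as Mpo at 1 TPM or more in 31 of 31 tpMo cells, is read here with that limit, and levels are used instead.

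Monocyte effector and surface genes were the counterpart: 23 of 30 measured members (of 36) were higher in tpMo cells and 2 were lower, with a median difference of 3.15. The summed level was 4270.1, 14144 and 31245 TPM in tpMo cells and 1575, 3512 and 6769 TPM in proneu cells, and 30 of 31 tpMo cells lay above the highest proneu cell. The exception was tpMo cell 24. Ccr2, the chemokine receptor gene of classical monocytes, had 0.67, 544 and 2049 TPM in tpMo cells and 0, 0 and 2.49 TPM in proneu cells, a difference of 8.43. F13a1, the coagulation factor XIII A subunit gene, had 632, 1840.1 and 3712 TPM in tpMo cells and 0, 2.66 and 133 TPM in proneu cells, a difference of 7.70.

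Several more genes of this list were higher in tpMo cells. Ms4a6c, a membrane gene of the Ms4a family, differed by 7.47, Fn1, the fibronectin gene, by 7.36 and Ly86, which encodes the MD-1 partner of the receptor CD180, by 6.41. Tgfbi, a matrix protein gene of monocytes, was detected in 24 of 31 tpMo cells and 3 of 21 proneu cells. The 2 lower members, Spn (-2.12), a sialoglycoprotein gene of leukocytes, and Plac8 (-1.72), were named after their values were seen. Cx3cr1, the receptor gene of non-classical monocytes and their progenitors, was detected in 6 of 31 tpMo cells and 0 of 21 proneu cells.

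Complement, coagulation and matrix genes were higher as well, with 6 of 10 measured members (of 24) higher and 1 lower. Their summed level had a lowest value of 1620 TPM in tpMo cells, above the highest proneu cell at 896 TPM, and this separation included tpMo cell 24. Besides F13a1 and Fn1, Cfp, the properdin gene of the alternative complement pathway, differed by 4.71 and Plaur, the urokinase receptor gene, by 3.39. F10, the coagulation factor X gene, had 0, 195 and 1115 TPM in tpMo cells and 0, 1.87 and 343 TPM in proneu cells.

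On the scale of mean log2(TPM + 1), transcription factors split by branch in their counts. Of 15 measured monocyte and dendritic cell factors (of 20), 7 were higher in tpMo cells and 1 was lower. Irf5, an interferon regulatory factor of inflammatory macrophages, had 0, 348 and 1324 TPM in tpMo cells and was under 1 TPM in all 21 proneu cells, which allows a share of detecting cells of up to 16.1%. Klf4, a factor required for monocyte differentiation, was detected in 25 of 31 tpMo cells, with a median of 8.50 TPM, and in 0 of 21 proneu cells. Zeb2 (2.69) and Id2 (2.46), factors of monocyte and dendritic cell development, were also higher, and the lower member was Nfkb1 (-3.05), an NF-kappaB subunit gene.

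Neutrophil and granulocyte factors were 7 lower and 2 higher of 11 measured (of 14). By the ratio of means 5 were lower and 3 higher, and with 10 TPM added 3 and 1. Their summed level overlapped between the labels, with a median of 556 TPM in tpMo cells and 671 TPM in proneu cells. Gfi1, a repressor required for neutrophil differentiation, was detected in 0 of 31 tpMo cells, which allows a share of up to 11.2%, and in 11 of 21 proneu cells (52.4%, 29.8 to 74.3%). Cebpe, a factor of terminal granulocyte maturation, was detected in 9 of 31 tpMo cells and 18 of 21 proneu cells, a difference of -3.56. Myb, a proto-oncogene of progenitor growth, had 0, 1.08 and 199 TPM in tpMo cells and 0.68, 139 and 627 TPM in proneu cells, a difference of -5.04. The 2 higher members were Cebpd (2.36) and Ikzf1 (1.24), the second named after its value was seen, while Cebpa lay within 1 at 0.37 and Spi1, which encodes PU.1 and is on the monocyte list, was higher at 1.30.

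Pairs of these factors were then counted in single cells. Of 31 tpMo cells, 21 detected both Csf1r and Irf8, 7 Irf8 alone, 1 Csf1r alone and 2 neither. Irf8 and Gfi1 were detected together in 0 of 31 tpMo cells and in 3 of 21 proneu cells, where Irf8 did not exceed 7.64 TPM. Gfi1 and Cebpe were detected together in 0 of 31 tpMo cells and 10 of 21 proneu cells. Gfi1 alone was detected in 0 of 31 tpMo cells, so both tpMo counts with Gfi1 could only be 0. Whether any pair met more often than the shares of its genes give was not tested.

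**Figure D4:**
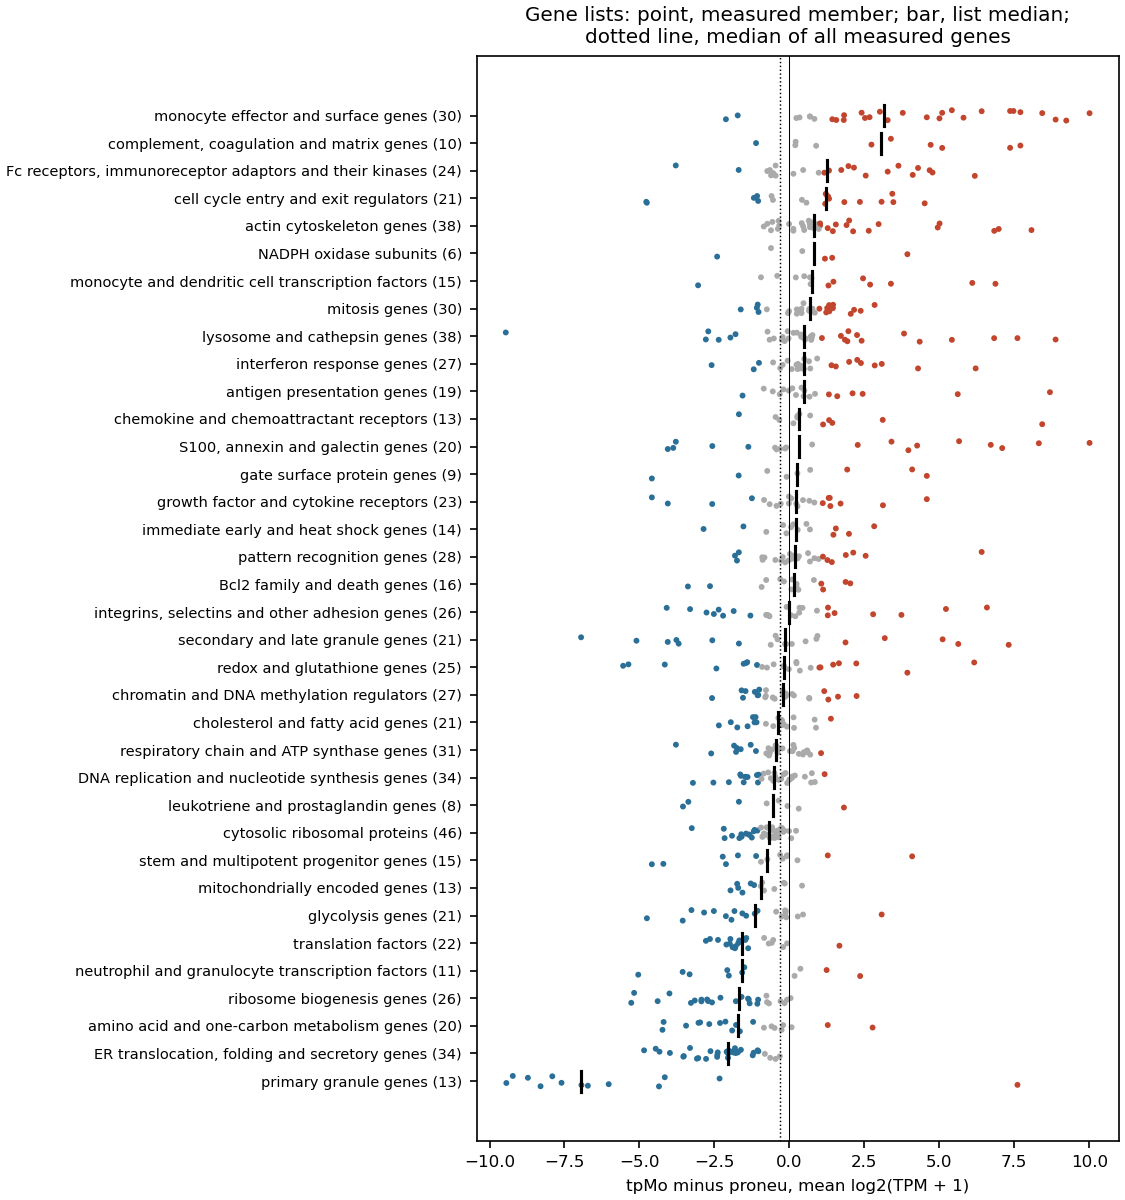
Difference of mean log2(TPM + 1), tpMo minus proneu, for every measured member of the gene lists with at least 5 measured members; red and blue points are at least 1 log2 unit higher or lower in tpMo cells, black bars are list medians and the dotted line is the median of all measured genes, -0.32. The lists run from monocyte effector genes at 3.15 to primary granule genes at -6.93.

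Lysosomal genes were higher in 13 and lower in 6 of 38 measured members (of 39), and in the cells with 3000 to 4300 detected genes 21 were higher and 7 lower. Ctss, the gene of cathepsin S, which trims the class II invariant chain, had 0, 885 and 3929 TPM in tpMo cells and 0, 0 and 5.5 TPM in proneu cells. Psap, the precursor gene of the saposins that help degrade sphingolipids, had 213, 3183 and 5727 TPM in tpMo cells and 0, 13.8 and 273 TPM in proneu cells. Ctsh, a further cathepsin gene, differed by 5.42 and Lamp1, a lysosomal membrane gene, by 4.35. Cd63 (-9.46), described above, was the largest of the 6 differences in the other direction.

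Antigen presentation genes were higher in 6 and lower in 1 of 19 measured members (of 23). Ifi30, the gene of a lysosomal thiol reductase that unfolds antigens, had 0, 985 and 2611 TPM in tpMo cells and 0, 0 and 77.7 TPM in proneu cells, a difference of 8.69. H2-DMa, a chain of the peptide loading molecule H2-DM, differed by 5.62 and its partner H2-DMb1 by 2.11. The class II genes H2-Aa and H2-Eb1 and their activator gene Ciita averaged under 1 TPM under both labels and were not measured. The class II gene H2-Ab1 was measured and averaged 0.085 TPM in tpMo cells and 9.45 TPM in proneu cells, a difference of -0.55. Cd74, the invariant chain gene, averaged 10.5 TPM in tpMo cells and 0 TPM in proneu cells, a difference of 0.47.

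Fc receptor and adaptor genes were higher in 13 and lower in 2 of 24 members, all measured. Fcer1g, the common signalling chain of Fc receptors, had 504, 1233 and 2469 TPM in tpMo cells and 0, 66.1 and 326 TPM in proneu cells, without overlap. Lilrb4 and Pirb, inhibitory receptor genes, differed by 6.18 and 4.77, and Lyn, a Src family kinase gene, by 4.29. The lower members were Clec12a (-3.79), an inhibitory lectin gene, and Fcgr3 (-1.69), the gene of the Fc receptor CD16, which was part of the proneu gate.

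Of 28 measured pattern recognition genes (of 33), 7 were higher and 3 lower, or 11 and 2 of 27 at 3000 to 4300 detected genes, and besides Ly86 the highest was Pycard (2.54), the adaptor gene of inflammasomes. Interferon response genes were higher in 9 and lower in 3 of 27 measured (of 33), and by the ratio of means in 18 and 3. Ifitm3, which encodes a membrane protein that limits virus entry, had 0, 795 and 1841 TPM in tpMo cells and 0, 0 and 110.0 TPM in proneu cells. Ifi27l2a was detected in 17 of 31 tpMo cells and 0 of 21 proneu cells.

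The counts for receptors of growth factors and chemoattractants moved with the scale. Of 23 measured growth factor and cytokine receptor genes (of 25), 7 were higher and 4 lower in tpMo cells, against 2 and 3 with 10 TPM added and 13 and 3 by the ratio of means. Il6ra, the interleukin 6 receptor gene, differed by 3.12, while Csf3r, the receptor gene for the neutrophil growth factor G-CSF, had 0, 0 and 633 TPM in tpMo cells and 0, 153 and 587 TPM in proneu cells, a difference of -4.05. Of 13 measured chemokine and chemoattractant receptor genes (of 20), 5 were higher and 1 lower, and 3 and 1 of 9 measured at 3000 to 4300 detected genes. Cxcr4, whose protein was part of the tpMo gate, had 0, 4.48 and 138 TPM in tpMo cells and 0, 3.05 and 265 TPM in proneu cells. The groups overlapped, and the difference was 0.69. The 265 TPM belonged to proneu cell 8, and the next highest proneu cell had 23.2 TPM.

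Other genes of the sorted proteins were read with the same limit. Kit, the gene of c-Kit, was detected in 0 of 31 tpMo cells and 16 of 21 proneu cells, and the gates asked for c-Kit with opposite signs. Ly6c2 overlapped between the labels, with 1797, 9552 and 14988 TPM in tpMo cells and 4226, 7549 and 20795 TPM in proneu cells, and both gates asked for Ly6C. Ly6a, the gene of Sca-1, which the proneu gate excluded, differed by 4.09. Cd34 lay at -0.09, although only the proneu gate asked for CD34.

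Adhesion genes went both ways, with 7 higher and 8 lower of 26 measured (of 28). Of all measured genes 7.29% were higher and 24.8% lower, so the share of lower adhesion genes was near that of all genes. Itgb7, an integrin gene of tissue homing, was detected in 27 of 31 tpMo cells and 1 of 21 proneu cells, a difference of 6.59. Selplg, the P-selectin ligand gene, had 234, 896 and 2453 TPM in tpMo cells and 0, 72.3 and 354 TPM in proneu cells. In the other direction Vcam1 was detected in 0 of 31 tpMo cells and 13 of 21 proneu cells, and Icam2 in 5 of 31 tpMo cells and 13 of 21 proneu cells.

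S100, annexin and galectin genes were higher in 9 and lower in 5 of 20 members, all measured. S100a10 and its partner Anxa2, which bind each other at the plasma membrane, differed by 8.32 and 7.10. S100a4 was detected in 23 of 31 tpMo cells and 0 of 21 proneu cells, and S100a6 in 30 of 31 tpMo cells and 1 of 21 proneu cells. Actin cytoskeleton genes were higher in 15 and lower in 0 of 38 measured members (of 40). Lsp1, an actin-binding gene of leukocytes, had 153, 1899 and 5693 TPM in tpMo cells and 0, 1.99 and 186 TPM in proneu cells. Vim, the vimentin gene, differed by 4.95 and Capg, which caps actin filaments, by 5.01.

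The NADPH oxidase, which makes superoxide in phagocytes, was split by subunit. Cybb, the gene of its catalytic subunit, had 21.4, 495 and 2755 TPM in tpMo cells and 0, 37.7 and 612 TPM in proneu cells, a difference of 3.94, and Ncf4 (1.43) and Cyba (1.19) were higher too. The cytosolic organiser gene Ncf1 had 0, 4.16 and 418 TPM in tpMo cells and 0, 132 and 765 TPM in proneu cells, a difference of -2.41. Rac2, a small GTPase gene of the complex, lay within 1 at -0.61.

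Genes of the secretory pathway were lower in tpMo cells in 30 of 34 members, all measured, and 0 were higher, with a median difference of -2.04. In the cells with 3000 to 4300 detected genes 25 were lower and 0 higher, and by the ratio of means 18 were lower and 0 higher. The summed level was 2724, 6824 and 16282 TPM in tpMo cells and 8725, 17675 and 22855 TPM in proneu cells, and 19 of 31 tpMo cells lay below every proneu cell. Hspa5, the gene of the ER chaperone BiP, had 0.68, 373 and 1304 TPM in tpMo cells and 323, 1594 and 3054 TPM in proneu cells, a difference of -3.52. Calr, the gene of the lectin chaperone calreticulin, had 0, 2.59 and 768 TPM in tpMo cells and 0, 517 and 1374 TPM in proneu cells, a difference of -4.85. Both genes overlapped between the labels, with proneu cells at the high end. Pdia6 (-4.33) and Pdia4 (-3.98), disulfide isomerase genes, and Creld2 (-4.46) and Manf (-3.54), genes of secreted proteins induced by ER stress, were lower too.

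Many genes of this list are known targets of the unfolded protein response, so their promoters were searched for the ER stress element (CCAAT, then 9 bases of any kind, then CCACG) on both strands over the 250 bases before the RefSeq start. The element, which holds a CCAAT box, was chosen with the results known. Since many genes of the list are known targets, the share with the element does not bear on levels in tpMo and proneu cells. It was present in 7 of 25 promoters of the list with an entry (28%; Hspa5, Hsp90b1, Calr, Canx, Pdia6, Dnajc3 and Creld2), against 33 of 27025 promoters (0.122%), and in 0 of 12 primary granule promoters. Stretches from RefSeq (GRCm38.p6) are given 5′ to 3′ on the gene's strand, with the fixed letters of the element in capitals, for 3 of the genes with values above. They come from Pdia6 (chr12:17266451-17266549, plus strand), Calr (chr8:84847035-84847133, minus strand) and Creld2 (chr15:88819480-88819578, plus strand), and in the last 2 the element lies on the opposite strand. GENCODE starts Pdia6 earlier, so the last bases of its stretch lie inside the gene there, and the element of Hspa5 lies inside its gene by GENCODE's start. Letters alone do not show that a factor bound there in these cells.
Pdia6: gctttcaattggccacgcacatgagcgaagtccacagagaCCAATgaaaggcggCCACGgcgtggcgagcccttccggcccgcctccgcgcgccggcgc
Calr: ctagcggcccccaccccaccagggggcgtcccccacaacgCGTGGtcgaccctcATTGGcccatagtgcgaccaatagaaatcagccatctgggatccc
Creld2: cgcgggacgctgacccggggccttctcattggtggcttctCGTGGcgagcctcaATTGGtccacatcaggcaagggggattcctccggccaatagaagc

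Ribosome biogenesis genes were lower in 19 of 26 members, all measured, and 0 were higher, with a median of -1.69. At 3000 to 4300 detected genes 18 were lower and 0 higher. Nop56, a component of the particles that modify ribosomal RNA, had 0, 4.58 and 677 TPM in tpMo cells and 2.27, 535 and 1474 TPM in proneu cells, a difference of -4.39, and its partner Nop58 differed by -5.27. Myc, a driver of this gene group, was detected in 15 of 31 tpMo cells and 15 of 21 proneu cells, with a median of 0 TPM in tpMo cells and 230 TPM in proneu cells. Translation factors were lower in 15 of 22, all measured, but in only 9 at 3000 to 4300 detected genes and in 3 by the ratio of means. Of the 46 cytosolic ribosomal protein genes, all measured, 14 were lower and 0 higher, a share of lower genes near the 24.8% of all measured genes. Of them, 10 were lower at 3000 to 4300 detected genes, 8 with 10 TPM added and 5 by the ratio of means.

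Metabolic genes were lower in part. Glycolysis and pentose phosphate genes were lower in 12 and higher in 1 of 21 measured (of 23). By the ratio of means 6 were lower and 2 higher, and with 10 TPM added 8 and 1. At 3000 to 4300 detected genes 9 were lower and 1 higher. Their summed level had a median of 13775 TPM in tpMo cells and 16283 TPM in proneu cells, and 0 tpMo cells lay below every proneu cell. Hk3, the hexokinase gene of myeloid cells, had 0, 5.54 and 597 TPM in tpMo cells and 151, 628 and 1412 TPM in proneu cells, a difference of -4.75. G6pdx, the first enzyme gene of the pentose phosphate pathway, was 3.08 higher while Pgd (-2.52) and Tkt (-2.84) of the same pathway were lower. Amino acid and one-carbon genes were lower in 12 and higher in 2 of 20, all measured. Phgdh, the first enzyme gene of serine synthesis, had 0, 3.29 and 958 TPM in tpMo cells and 0, 692 and 1558 TPM in proneu cells, while the mitochondrial folate enzyme gene Mthfd2 was 2.77 higher.

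The counts of some other lists depended on the cells and the scale. Cholesterol and fatty acid genes were lower in 8 and higher in 1 of 21 measured (of 23), in 4 and 4 of 19 at 3000 to 4300 detected genes, and in 2 and 0 with 10 TPM added. Respiratory chain and ATP synthase genes were lower in 8 and higher in 1 of 31, all measured, close to the 24.8% lower among all measured genes, and by the ratio of means in 2 and 0. The 13 mitochondrially encoded genes were lower in 6 and higher in 0, and by the ratio of means in 1 and 1. Stem and multipotent progenitor genes were lower in 6 and higher in 2 of 15 measured (of 24), with Kit and Myc lower and Ly6a higher. Hlf, a stem cell factor gene, was detected in 0 of 31 tpMo cells and 7 of 21 proneu cells. Immediate early and heat shock genes, which respond to handling, were higher in 4 and lower in 2 of 14 measured (of 21).

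Among redox genes, 7 were higher and 8 lower of 25 measured (of 27), beside 7.29% higher and 24.8% lower of all measured genes. Prdx4, the peroxiredoxin gene of the ER, was detected in 23 of 31 tpMo cells and was at 0 in all 21 proneu cells. Gsto1 and Mgst2, glutathione transferase genes, differed by -5.54 and -5.37. Leukotriene genes also went both ways, with 1 higher and 3 lower of 8 measured (of 14). Alox5ap, which presents arachidonic acid to 5-lipoxygenase, was 1.82 higher, and Lta4h, the enzyme gene that makes leukotriene B4, had 0, 351 and 1358 TPM in tpMo cells and 4.16, 1637 and 3521 TPM in proneu cells, a difference of -3.37.

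**Figure D5:**
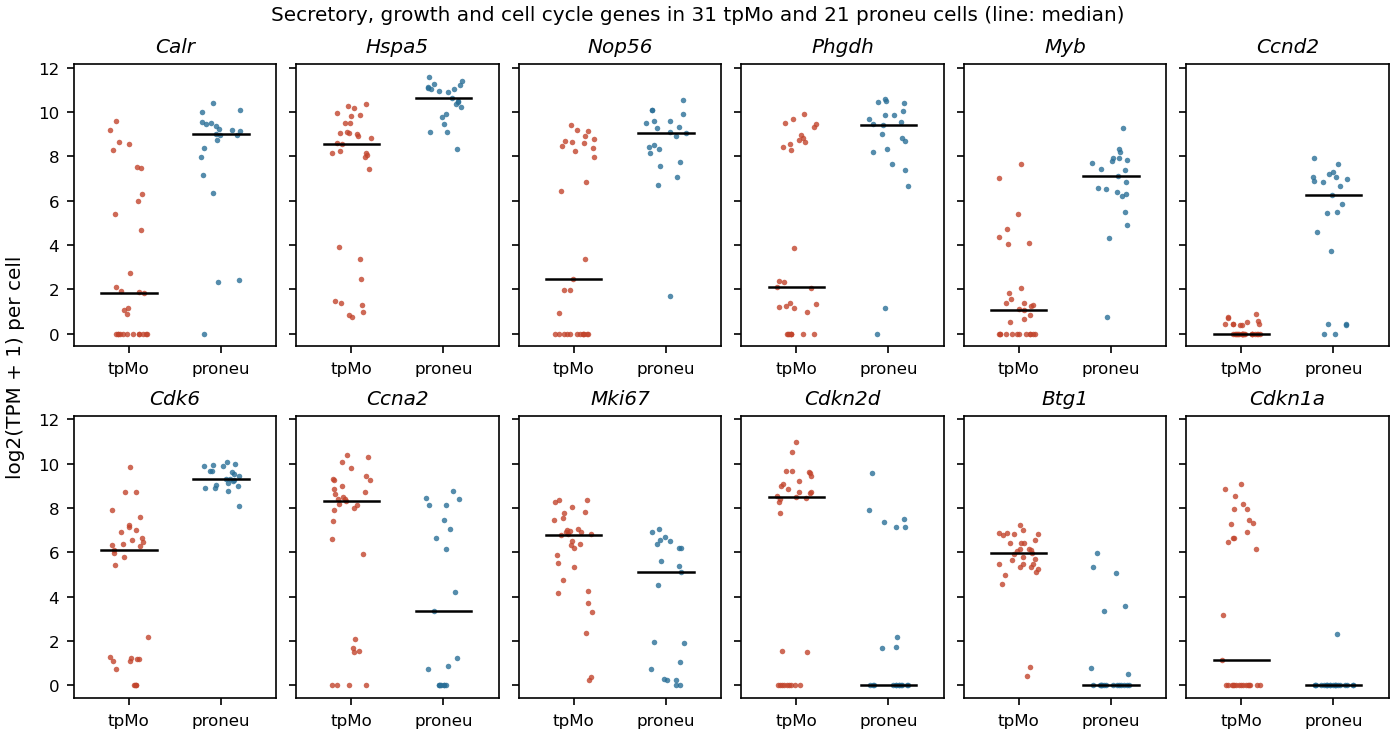
log2(TPM + 1) of 12 secretory, growth and cell cycle genes in 31 tpMo cells (red, left) and 21 proneu cells (blue, right); each point is a cell and the line is the median. Cdk6 and Ccnd2 are low in tpMo cells while Ccna2 and Mki67 are high in many of them, and Calr, Nop56 and Phgdh each show a high and a near-zero set of tpMo cells.

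Cell cycle genes differed in both directions. Ccnd2, the cyclin D2 gene of G1 entry, was under 1 TPM in all 31 tpMo cells, which allows a share of up to 11.2%, and was detected in 16 of 21 proneu cells. Cdk6, its kinase partner, had 0, 67.3 and 936 TPM in tpMo cells and 276, 643 and 1089 TPM in proneu cells, a difference of -4.75, and 28 of 31 tpMo cells lay below every proneu cell. Some genes of cycle exit were higher: Btg1 (4.51), an antiproliferative gene, Cdkn2d (3.47), a CDK inhibitor gene, and Cdkn1a (3.43), the p21 gene, detected in 16 of 31 tpMo cells and 1 of 21 proneu cells. In all, 12 of 21 measured regulators of cycle entry and exit (of 23) were higher and 5 were lower.

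Transcripts of dividing cells were nevertheless present in tpMo cells. Ccna2, the cyclin A2 gene, had 0, 318 and 1346 TPM in tpMo cells and 0, 9.30 and 436 TPM in proneu cells, a difference of 2.84. Mki67, a proliferation marker gene, had 0.18, 110 and 333 TPM in tpMo cells and 0, 33.3 and 130.1 TPM in proneu cells, and was detected in 29 of 31 tpMo cells and 15 of 21 proneu cells. Of 30 mitosis genes, all measured, 12 were higher and 4 lower in tpMo cells, and at 3000 to 4300 detected genes 15 were higher and 1 lower. Cdc20, the activator gene of anaphase, differed by -1.62, but by the ratio of means it was 0.46 higher, as its highest tpMo cell had 2934 TPM.

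DNA replication genes gave no fixed direction. With all cells 12 of 34 members, all measured, were lower and 1 was higher, the median being -0.52, while in the cells with 3000 to 4300 detected genes 4 were lower and 15 higher, the median being 0.80. By the ratio of means 3 were higher and 1 lower. The summed level per cell had a median of 9673 TPM in tpMo cells and 6759 TPM in proneu cells.

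Most markers of other cell types were at 0 in every cell, while some reached high levels. Dendritic cell markers were at 0 in every cell of both labels for 10 of 14 genes, erythroid and megakaryocyte markers for 10 of 18, basophil, mast cell and eosinophil markers for 11 of 17, B, T and natural killer cell markers for 19 of 22, and macrophage and stromal markers for 12 of 16. The summed dendritic cell level had 0, 64 and 846 TPM in tpMo cells and 0, 1.49 and 224 TPM in proneu cells. In 7 tpMo cells it lay above the highest proneu cell. Of its 4 measured genes, Btla was detected in 9 of 31 tpMo cells and 0 of 21 proneu cells, and Bst2 in 11 and 9. The summed basophil, mast cell and eosinophil level had 0, 0.89 and 164 TPM in tpMo cells and 2.34, 566 and 2243 TPM in proneu cells. Hdc, the histamine synthesis gene, had 0, 0.79 and 164 TPM in tpMo cells and 1.64, 373 and 1241 TPM in proneu cells, and Siglecf, an eosinophil receptor gene, was detected in 0 of 31 tpMo cells and 11 of 21 proneu cells. Mcpt8, a basophil protease gene, was detected in 2 of 31 tpMo cells and 5 of 21 proneu cells. Ighm, the immunoglobulin M heavy chain gene, had 2.50, 897 and 3485 TPM in tpMo cells and 0, 78.3 and 1555 TPM in proneu cells, a difference of 4.05. Nkg7, a granule membrane gene known from natural killer cells, is on the lymphoid and the primary granule list and differed by -9.44. The summed B, T and natural killer cell level, which holds Ighm and Nkg7, had 4.19, 897 and 3844 TPM in tpMo cells and 2565, 3626 and 9145 TPM in proneu cells. Whether cells of other types had a part in these levels was not tested.

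The preNeu cells, which come after the proneu stage on the neutrophil branch, were set beside these values. Of the 20 largest differences upward in tpMo cells, preNeu cells were at least 1 log2 unit above proneu cells in 7, below in 3 and within 1 in 10. Of the 20 largest differences downward, preNeu cells were below proneu cells in 19 and within 1 in 1. Both comparisons use the same proneu cells, so the values are only set side by side. Median Lyz2 was 40854 TPM in preNeu cells and median Lgals3 588 TPM, whereas Pld4, Ctss, Ccr2 and Irf5 had a median of 0 there. Median Elane, Mpo and Ctsg in preNeu cells were 28.6, 33.3 and 2.87 TPM, each below the median of tpMo cells as well as that of proneu cells.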

How the data were processed

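Single cells were sorted from bone marrow, and cDNA was made by SMART-seq2 with Nextera XT libraries and paired-end HiSeq reads, per the labels' protocols. The authors deposited 1 table of TPM values for 43280 gene symbols. RSEM 1.2.19 and the build GRCm38 are named per the submitters' processing notes; for the aligner, the annotation and any filter, the step is not given in the sources used here. Such values keep no read depth, so only the number of detected genes per cell describes it, and without molecular identifiers intervals cover counting error only. RSEM shares reads of near-identical genes (Ly6c1 and Ly6c2, the Ms4a6 genes) by estimate, which makes those genes less certain. Column totals ran from 998731 to 999996, and no pair of cells had identical values.

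Cells were grouped by label. The effect was the difference, tpMo minus proneu, of mean log2(TPM + 1), with a pseudocount of 1 TPM, among genes with a mean of at least 1 TPM under either label; cells gave no test, p-value or standard error. The effect script was tested on simulated data. The comparison, the 41 gene lists (982 entries, 935 genes, 8 matched by a RefSeq synonym), the motifs and the naming rule were chosen with earlier results of these data known, so no list gives independent support. Named genes were the 4 markers, the gate genes, the 20 largest differences each way (mean of at least 50 TPM and detected by at least 50% of the higher label's cells, same direction of the ratio of means, no predicted or ribosomal protein genes) and up to 6 members per list with the largest differences and at least 5 TPM. Camp, Canx, Cd74, Cebpa, Dnajc3, H2-Ab1, Hsp90b1, Ikzf1, Ltf, Ngp, Plac8, S100a9, Spi1, Spn and the class II genes under the limit were named outside the rule, after their values were seen. Genes described from the rule were picked for their function.

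The 13 alternatives were 9 planned and 4 added after the data were seen (without tpMo cell 24, without the 3 tpMo cells highest in Mpo, without proneu cell 8, and only cells with 3000 to 4300 detected genes). No cell was left out of the main values and doublets were not called. The proneu cell outside the stretch of titles entered 1 alternative only. Gene positions are from GENCODE M21 on GRCm38, which held 39469 symbols (91.2%), and promoter sequences from RefSeq on GRCm38.p6. Python 3.11.15, numpy 2.4.6, pandas 2.3.3, scipy 1.17.1 and matplotlib 3.10.9 were used.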

Additional observations from a re-analysis of the deposited data

How the results depend on the processing

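The counts of lower primary granule, higher monocyte effector, higher mitosis and lower ribosome biogenesis genes stayed within 1.5 times of their values under each alternative that was run. With a pseudocount of 10 TPM, 441 genes were higher in tpMo cells, 1164 were lower, and 3 DNA replication genes were lower; a larger pseudocount shrinks all differences by construction. By the log2 ratio of mean TPM, 2922 genes were higher, and 1 DNA replication gene and 18 ER genes were lower. Of the named genes past 1 log2 unit in the main values, Cdc20 (0.46) and Rpl27 (0.015), a ribosomal protein gene, changed sign. In cells with 3000 to 4300 detected genes, 1484 genes were higher and 4 DNA replication genes were lower; the cause was not tested. Over the lists 490 of 533 counts stayed within 1.5 times and 43 moved. Each count was that of a list's larger direction in the main values, and the other direction was not scored. For example, DNA replication genes that were higher went from 1 to 15 in cells with 3000 to 4300 detected genes. Of 3093 values of named genes 2987 were scored as unchanged, 95 came under 1 log2 unit, 9 passed it and 2 changed sign. Changes of sign were scored only for genes at 1 log2 unit or more in the main values. A gene under it that changed sign was scored as unchanged. The alternative without cells under 2000 detected genes was not run, as 0 cells were under it, and renormalising leaves the mitochondrially encoded genes without a value. No paired analysis was possible because the labels give no replicate numbers and name no animal. The unknown read depth limits low genes most, and a single cell decides many low means.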

Other observations

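Among 16 measured Bcl2 family and death genes (of 22), 4 were at least 1 log2 unit higher in tpMo cells and 2 were lower, against 7.29% and 24.8% of all measured genes. Without proneu cell 8, 2 were higher and 3 lower, beside 800 and 2991 of all measured genes, so the larger direction depended on that cell. Bid, a pro-apoptotic gene, had a lowest, median and highest value of 0, 2.68 and 668 TPM in tpMo cells and 0, 244 and 1233 TPM in proneu cells, a difference of -3.38. Bcl2l11, the gene of the pro-apoptotic protein BIM, was detected in 9 of 31 tpMo cells and 0 of 21 proneu cells. The anti-apoptotic gene Cflar differed by -2.65 and Mcl1 by 1.06. Of 27 measured chromatin genes (of 29), 4 were higher and 8 lower, and 6 and 4 in the cells with 3000 to 4300 detected genes. In those cells 1484 of all 10664 measured genes were higher and 2432 lower. By the ratio of means 7 chromatin genes were higher and 3 lower, beside 2922 and 3196 of all 11446 measured genes. The list had no fixed direction. Dnmt3a, a de novo DNA methyltransferase gene, was detected in 1 of 31 tpMo cells and 11 of 21 proneu cells.

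Several of the largest differences belong to no list. Rgcc, a cell cycle regulator gene, had 0, 0 and 222 TPM in tpMo cells and 132, 1710.0 and 3942 TPM in proneu cells, and 30 of 31 tpMo cells lay below every proneu cell. Nedd4, a ubiquitin ligase gene, was detected in 3 of 31 tpMo cells and 20 of 21 proneu cells, with a highest value of 24.4 TPM in tpMo cells and 459 TPM in proneu cells. Gatm, the first enzyme gene of creatine synthesis, had 0, 0.90 and 538 TPM in tpMo cells and 235, 423 and 1218 TPM in proneu cells. Alas1, the first enzyme gene of haem synthesis, had 0, 6.31 and 2378 TPM in tpMo cells and 385, 1917 and 4404 TPM in proneu cells; myeloperoxidase carries a haem group. Slfn2, a Schlafen family gene, had 5.54, 544 and 2038 TPM in tpMo cells and 0, 0 and 166 TPM in proneu cells.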
